A study of Saccharomyces cerevisiae with 14 samples.

Results

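The 10 genes described here belong to the iron uptake regulon of budding yeast: the regulator AFT1, the surface reductases FRE1, FRE2 and FRE3, the iron oxidase FET3 and its permease partner FTR1, the cell wall proteins FIT2 and FIT3, and the siderophore transporters ARN1 and SIT1. They were chosen by name, with earlier results of these data known. Each is read by 1 probe set, so they make up 10 of the 5449 genes with a listed S. cerevisiae probe set. Their systematic names are YGL071W (AFT1), YLR214W (FRE1), YKL220C (FRE2), YOR381W (FRE3), YMR058W (FET3), YER145C (FTR1), YOR382W (FIT2), YOR383C (FIT3), YHL040C (ARN1) and YEL065W (SIT1). All 14 arrays (Affymetrix Yeast Genome 2.0) carry RNA of the wild-type strain YSBN6, grown in a fermentor (batch mode, 30 °C, pH 5) in minimal medium with glucose and proline, then given a single glutamine addition. The groups are 7 min and 24 min after that addition and the steady state 10 min before it (-10 min), each with 3 arrays from the experiments BY003, BY008 and BY012. Further arrays at 3, 10, 14, 56 and 120 min come from BY008, 1 per time, and have no replicates. The design text calls the replicates biological. No culture without added glutamine is among the samples, so time in the fermentor and the addition cannot be told apart. The strain is 1 wild type and no iron source, iron level or iron chelator is named in the labels.

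Iron in aerobic medium is mostly ferric and poorly soluble. Yeast cells reduce it at the cell surface with ferric reductases, then take it up through a complex in which the multicopper oxidase Fet3 oxidises the iron again and hands it to the permease Ftr1. A separate route captures iron bound to siderophores, which are chelators made by other microbes: mannoproteins of the cell wall hold the chelates near the cell, and transporters of the Arn family bring them in. The transcription factor Aft1, together with its relative Aft2, switches on the genes of both routes when iron is scarce, and its activity is set mainly by where the protein is in the cell and by signals from iron-sulfur clusters.

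Values are log2 of the deposited intensity, and levels of different genes are not compared. Median intensities of single arrays, taken over every probe set, ran from 159 to 279, and precision is limited by how few arrays there are. Values of the members ran from 7.73 to 13.44 over the 14 arrays. All lay above 6.11, the 95th percentile of the probe sets for another yeast (S. pombe) on the same arrays, and below the highest value of any probe set, 15.14. Arrays of the same time correlated across genes with r from 0.928 to 0.985, and genes are not independent replicates. The median of all genes was lower by 0.33 on the log2 scale at both 7 and 24 min, so each difference below can be read against that shift. BY012 differed most at -10 min: there 32 genes exceeded the other -10 min arrays by 4-fold or more and 11 fell short of them by as much, none of them a member. The 24 min array of BY012 was the lowest of its time in all 10 members, where it was the lowest in 49.1% of all genes; with array medians subtracted it was so in 9 members and 39.2% of genes. Without it, 7 members were still called higher and 1 lower at 24 min against -10 min, where 22.3% and 40.9% of all genes were. At 24 against 7 min 7 members were higher in that fit, where 9.23% of all genes were. In bulk RNA, fewer cells with a transcript and less of it per cell cannot be told apart.

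At 24 min, 7 of the 10 genes were higher than at -10 min: FRE1, FRE3, FET3, FTR1, FIT3, ARN1 and AFT1. FRE2 was lower, and FIT2 and SIT1 did not pass the test. Among all genes 24.1% were called higher and 44.9% lower in the same comparison (limma on log2 values, Benjamini-Hochberg adjusted p under 0.05 over all 5449 genes). With array medians subtracted 31.9% of all genes were higher and 35.6% lower, with quantile normalization 33.1% and 33.0%, and 7 members were higher in either case. The median log2 difference over the 10 genes was 0.87, against -0.33 over all genes, and it was 0.79 in BY003, 1.23 in BY008 and 0.80 in BY012. At 7 min none of the 10 was called higher than at -10 min and 2 were called lower, FRE2 and SIT1, with a background of 16.7% higher and 35.7% lower. These background shares were 21.3% and 24.2% with array medians subtracted, and 20.6% and 25.6% with quantile normalization. The median at 7 min was -0.19 over the members and -0.33 over all genes. Between 24 and 7 min, 7 members were higher (FRE1, FRE3, FET3, FIT3, ARN1, SIT1 and AFT1) and none was lower, where 13.2% of all genes were called higher and 20.2% lower. With array medians subtracted these shares were 17.3% and 18.2%, and with quantile normalization 18.4% and 14.6%. Both comparisons of 24 min use the same 24 min arrays.

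**Figure D1:**
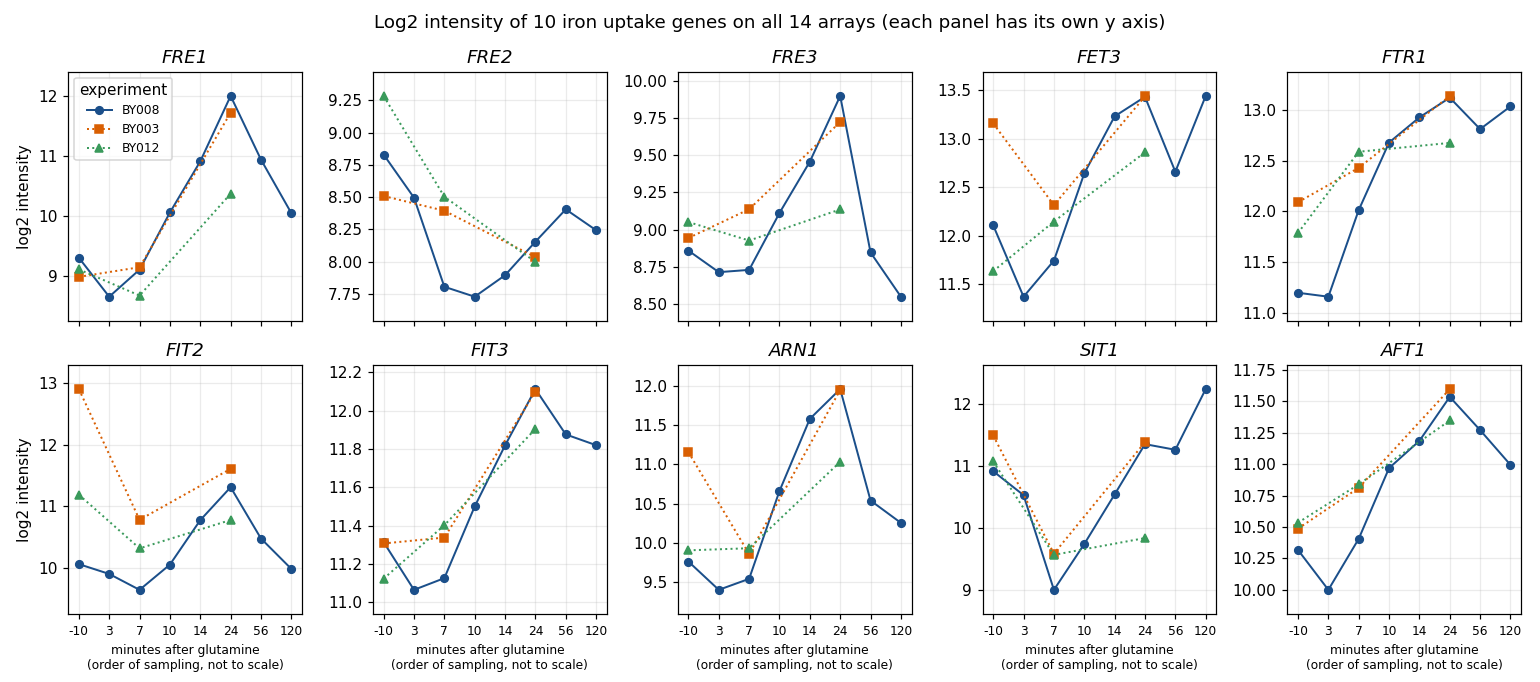
Log2 intensity (y axis, own scale in each panel) of the 10 genes against the time labels in min (x axis, evenly spaced), with 1 symbol per experiment and a line through the BY008 arrays. AFT1 has its lowest 24 min value at 11.35 and its highest -10 min value at 10.53, while the -10 min values of FIT2 spread from 10.06 to 12.90.

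AFT1 encodes the iron-responsive activator itself. Its log2 values were 10.49, 10.32 and 10.53 at -10 min, 10.81, 10.41 and 10.84 at 7 min, and 11.60, 11.54 and 11.35 at 24 min, in the order BY003, BY008 and BY012 that is kept below. All 24 min arrays lay above all others, and the 7 min values overlapped with those at -10 min. The transcript rose 2.07-fold at 24 min (log2 difference 1.05 ± 0.16, SE; limma adjusted p = 0.000289), by 1.11, 1.22 and 0.81 in the 3 experiments. At 7 min the difference was 0.24 ± 0.16 with an adjusted p of 0.220. With array medians subtracted this 7 min difference was 0.44 (adjusted p = 0.0322), and with quantile normalization it was 0.53 (adjusted p = 0.0126). Against 7 min, AFT1 at 24 min rose by 0.81 (adjusted p = 0.00466), a call that was lost without experiment BY003 (adjusted p = 0.103).

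FRE1 had the largest 24 min difference of the 3 member reductases. It encodes a plasma membrane reductase of iron and copper. FRE1 stood at 8.99, 9.30 and 9.11 at -10 min, 9.15, 9.11 and 8.67 at 7 min, and 11.72, 12.0002 and 10.37 at 24 min. The 24 min arrays lay clear of the other 6, and BY012 was the lowest of them. FRE1 was 4.69-fold higher at 24 min than at -10 min (log2 difference 2.23 ± 0.37, adjusted p = 0.000497), with 2.74 in BY003, 2.70 in BY008 and 1.26 in BY012. The 24 min arrays of FRE1 spanned 1.63, a wider range than 98.7% of genes had at that time. At 7 min the difference was -0.16 ± 0.37 (adjusted p = 0.731). The rise of 2.39 between 24 and 7 min (adjusted p = 0.00137) missed the threshold without BY003 (adjusted p = 0.0517).

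FRE2, a reductase of the same membrane, went the other way from FRE1. Its values were 8.51, 8.83 and 9.28 at -10 min, 8.39, 7.81 and 8.50 at 7 min, and 8.04, 8.15 and 7.9981 at 24 min. All arrays at 7 min and at 24 min lay below all arrays at -10 min. The fall at 24 min was -0.81 ± 0.23 (adjusted p = 0.0120), 1.76-fold lower, but it turned to 0.02 (adjusted p = 0.930) with quantile normalization. With array medians subtracted it was -0.53 (adjusted p = 0.0526), and without BY012 it was -0.57 (adjusted p = 0.0728). FRE2 at 24 min differed from 7 min by -0.17 (adjusted p = 0.606). Set against the median of all genes, FRE2 was lower by 0.48 at 24 min and by 0.31 at 7 min. The 7 min fall of -0.64 ± 0.23 (adjusted p = 0.0444) passed in only 2 of the 12 fits that left out an experiment or an array, without the -10 min array of BY003 and without the 7 min array of BY012. In the other 10 the adjusted p lay between 0.0568 and 0.211, the highest without BY008.

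FRE3 encodes a reductase of siderophore-bound iron. FRE3 read 8.94, 8.86 and 9.05 at -10 min, 9.14, 8.73 and 8.93 at 7 min, and 9.73, 9.90 and 9.14 at 24 min. The 24 min arrays lay above the -10 min arrays, by little in BY012. The rise was 0.64 ± 0.21 (adjusted p = 0.0202), with 0.78, 1.04 and 0.09 in the 3 experiments. It was not called without BY003 (adjusted p = 0.163), without BY008 (0.150), or without the -10 min array of BY008 (0.0549), the 24 min array of BY003 (0.0701) or that of BY008 (0.0759). At 7 min FRE3 differed from -10 min by -0.02 ± 0.21 (adjusted p = 0.941). Its rise between 24 and 7 min, 0.66 (adjusted p = 0.0362), was lost in 8 of the 12 leave-outs, with adjusted p values up to 0.267 without BY008.

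FET3 and FTR1 encode the oxidase and the permease of one uptake complex. FET3 had 13.16, 12.11 and 11.64 at -10 min, 12.32, 11.74 and 12.15 at 7 min, and 13.44, 13.43 and 12.86 at 24 min. The -10 min array of BY003 overlapped with the 24 min arrays, and the 1.52 spread of FET3 at -10 min was wider than that of 95.1% of genes. FET3 rose by 0.94 ± 0.36 at 24 min (1.92-fold, adjusted p = 0.0390), with 0.28, 1.32 and 1.22 in the 3 experiments. That call was lost in 8 of the 12 leave-outs. The adjusted p was 0.219 without BY008, 0.102 without BY012, 0.101 and 0.140 without the -10 min array of BY008 or BY012, 0.0514 and 0.0517 without the 7 min array of BY003 or BY012, and 0.108 and 0.102 without the 24 min array of BY003 or BY008. At 7 min FET3 differed from -10 min by -0.23 ± 0.36 (adjusted p = 0.599). Set against 7 min, the 24 min rise was 1.17 (adjusted p = 0.0324) with no overlap of the arrays, and 7 leave-outs ended that call, with adjusted p values up to 0.224 without BY008.

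FTR1 had 12.09, 11.20 and 11.79 at -10 min, 12.43, 12.01 and 12.59 at 7 min, and 13.13, 13.12 and 12.67 at 24 min. The 3 times formed a stepwise order in each experiment, with all 24 min arrays above all others. The 24 min rise was 1.28 ± 0.25 (2.43-fold, adjusted p = 0.00150), by 1.04, 1.92 and 0.89. FTR1 was the member with the largest positive difference at 7 min, 0.65 ± 0.25, which did not pass the test (adjusted p = 0.0548). With experiment as a replicate block it passed (adjusted p = 0.0369). It also passed with array medians subtracted (0.0169) or quantile normalization (0.0405), and without the -10 min array of BY003 (0.0257) or the 7 min array of BY008 (0.0376). The step between 24 and 7 min was 0.63 (adjusted p = 0.0830), and the values at the 2 times did not overlap. It passed without the -10 min array of BY008 (adjusted p = 0.0428).

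FIT2 and FIT3 encode GPI-anchored mannoproteins that retain siderophore iron in the cell wall, and their genes are neighbours in the R64 annotation (YOR382W and YOR383C). Their values did not run alike. FIT2 had 12.90, 10.06 and 11.19 at -10 min, 10.78, 9.65 and 10.32 at 7 min, and 11.61, 11.31 and 10.78 at 24 min. The spread of 2.83 at -10 min was wider than that of 99.2% of genes, and the 3 times overlapped. FIT2 differed from -10 min by -0.15 ± 0.61 at 24 min (adjusted p = 0.834), with -1.29 in BY003, 1.25 in BY008 and -0.41 in BY012. At 7 min it was lower in each experiment, by 2.12, 0.42 and 0.87, and the mean difference of -1.13 ± 0.61 did not pass the test (adjusted p = 0.143). With experiment as a replicate block the adjusted p was 0.0481, and without the -10 min array of BY008 it was 0.0199. The difference between 24 and 7 min was 0.98 (adjusted p = 0.248). FIT2 was the only one of the 10 members that did not pass the F test over the 3 replicated times (adjusted p = 0.215), a test that 73.4% of all genes passed.

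FIT3 had 11.31, 11.31 and 11.12 at -10 min, 11.34, 11.13 and 11.40 at 7 min, and 12.10, 12.11 and 11.90 at 24 min. The -10 min and 7 min arrays were mixed, and the 24 min arrays lay above them all. The 24 min rise was 0.79, 0.80 and 0.78 in the 3 experiments, and its mean of 0.79 ± 0.14 (1.73-fold) had an adjusted p of 0.000684. At 7 min the difference was 0.04 ± 0.14 (adjusted p = 0.815). FIT3 rose between 24 and 7 min by 0.75 (adjusted p = 0.00341), and without BY003 the adjusted p was 0.108. FRE3, whose locus YOR381W lies next to these 2 apart from 1 small open reading frame, rose by 0.64 at 24 min as given above.

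ARN1 and SIT1 encode transporters of ferric siderophores, SIT1 being known for ferrioxamine B and ARN1 for ferrichromes. ARN1 had 11.15, 9.76 and 9.91 at -10 min, 9.86, 9.54 and 9.93 at 7 min, and 11.94, 11.95 and 11.03 at 24 min. The -10 min array of BY003 was again the highest of its time and overlapped with the lowest 24 min array. ARN1 rose 2.58-fold at 24 min (1.37 ± 0.38, adjusted p = 0.00944), by 0.79, 2.19 and 1.12. Without BY008 the rise was 0.96 and was not called (adjusted p = 0.116). The difference at 7 min was -0.50 ± 0.38 (adjusted p = 0.282), of which -1.29 came in BY003, -0.22 in BY008 and 0.03 in BY012. ARN1 at 24 min against 7 min rose by 1.86 (adjusted p = 0.00551) with no overlap, and the adjusted p was 0.0552 without BY008.

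SIT1 had 11.50, 10.92 and 11.08 at -10 min, 9.59, 9.004 and 9.57 at 7 min, and 11.39, 11.36 and 9.84 at 24 min. It was low in all 7 min arrays, and at 24 min it was back near its -10 min values in BY003 and BY008 but not in BY012. The 7 min fall was -1.78 ± 0.39, 3.43-fold lower (adjusted p = 0.00481), with -1.91, -1.92 and -1.51 in the 3 experiments. Without BY003 it was -1.71 with an adjusted p of 0.05003, just over the threshold. The 24 min difference from -10 min was -0.30 (adjusted p = 0.510), made up of -0.11, 0.44 and -1.24. SIT1 rose by 1.48 between 24 and 7 min (adjusted p = 0.0189), by 1.80, 2.35 and 0.27. That call was lost without BY003 (0.165), without BY008 (0.169), without the 7 min array of BY008 (0.0677), and without the 24 min array of BY003 (0.0732) or of BY008 (0.0582).

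**Figure D2:**
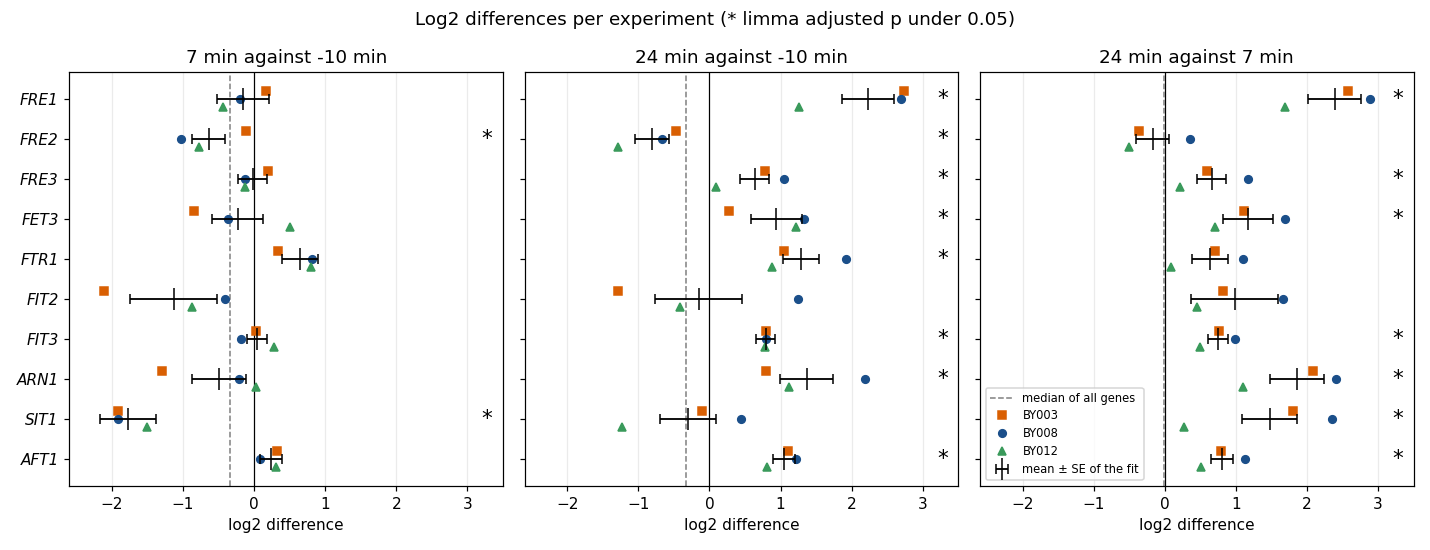
Log2 difference (x axis) of each member (rows) at 7 min against -10 min, at 24 min against -10 min and at 24 min against 7 min, with 1 point per experiment and the mean. At 24 min against -10 min the 3 points of FIT3 lie between 0.78 and 0.80, while those of FIT2 run from -1.29 to 1.25.

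At -10 min the spread between arrays differed widely from member to member. The ranges of FIT3, FRE3 and AFT1 were 0.19, 0.19 and 0.22, where the median range over all genes was 0.50. Those of FIT2, FET3 and ARN1 were 2.83, 1.52 and 1.39, and in each of these 3 genes the BY003 array was the highest. In all, 5 of the 10 members were highest in the -10 min array of BY003, as were 20.7% of all genes. The -10 min array of BY012, which stood apart over all genes, deviated from the mean of the other 2 by between -0.996 and 0.61 in the members. At 24 min the widest ranges were those of FRE1, 1.63, and SIT1, 1.55, and in both the BY012 array lay below the mean of the other 2 by more than in any other member. Over the 10 members the BY012 array at 24 min lay from 1.53 to 0.10 below that mean, with a median deviation of -0.63, against -0.07 over all genes. Its part in the 24 min results is given by the counts without it, above.

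Without BY008, 4 members were called higher at 24 min than at -10 min, FRE1, FTR1, FIT3 and AFT1, where 21.9% of all genes were called higher in the same fit. Without BY003, 1 member was called higher at 24 than at 7 min, ARN1, where 1.52% of all genes were called higher in that fit and 13.2% with all arrays. Counted without any model, all 24 min arrays lay above all -10 min arrays in 5 members (FRE1, FRE3, FTR1, FIT3 and AFT1) and below them in 1, FRE2, where 26.0% of all genes were above and 47.2% below. Between 24 and 7 min, 7 members lay above without overlap (FRE1, FET3, FTR1, FIT3, ARN1, SIT1 and AFT1), where 28.1% of all genes did, and none lay below, where 28.3% did. At 7 min, 2 members lay below all -10 min arrays, FRE2 and SIT1, and none above, where 44.2% of all genes lay below and 19.5% above.

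The 8 arrays of BY008 give the course between these times, with 1 array at each, and they are described with no test. At 3 min all 10 genes read lower than at -10 min, by between 0.04 (FTR1) and 0.73 (FET3), where 54.8% of all genes read lower. The median was -0.33 over the members and -0.02 over all genes at 3 min. From 7 min on, 9 of the 10 rose at every step over 7, 10, 14 and 24 min, a run seen in 27.0% of all genes, and FRE2 was the exception. The members' median difference from -10 min was -0.21 at 7 min, 0.39 at 10 min, 0.79 at 14 min, 1.23 at 24 min, 0.56 at 56 min and 0.59 at 120 min. The number at least 2-fold higher was 0 at 3 and 7 min, 1 at 10 min, 4 at 14 min, 7 at 24 min, 2 at 56 min and 3 at 120 min. Among all genes 4.44% were that much higher at 3 min, 8.81% at 7 min, 10.5% at 10 min, 11.3% at 14 min, 13.3% at 24 min, 12.4% at 56 min and 8.53% at 120 min. At least 2-fold lower were 2 members at 7 min (FRE2 and SIT1), the same 2 at 10 min and none at the other times. The background for that was 0.184% at 3 min, 12.2% at 7 min, 19.4% at 10 min, 22.9% at 14 min, 25.4% at 24 min, 17.6% at 56 min and 12.2% at 120 min.

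FRE1 showed the widest course of the 10. It had a log2 value of 9.30 at -10 min, 8.66 at 3 min, 9.11 at 7 min, 10.06 at 10 min, 10.91 at 14 min, 12.0002 at 24 min, 10.94 at 56 min and 10.05 at 120 min. The peak at 24 min was followed by a decline that left FRE1 0.74 above its start. ARN1 stood at 9.76, 9.41, 9.54, 10.66, 11.58, 11.95, 10.54 and 10.26 over the same times and was back to 0.49 above its start at 120 min. The course of ARN1 was thus also a peak at 24 min, but the step between 7 and 10 min was already larger than 1 log2 unit. AFT1 ran at 10.32, 10.00, 10.41, 10.97, 11.19, 11.54, 11.27 and 10.99.

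FRE1, FTR1, FIT2, FIT3, ARN1 and AFT1 were lowest at 3 or 7 min and highest at 24 min, which 4.18% of all genes were. At 56 min 9 members read lower than at 24 min, where 44.2% of all genes did, and FRE2 was again the exception. FET3 and SIT1 were highest at the last time. FET3 ran at 12.11, 11.37, 11.74, 12.64, 13.23, 13.43, 12.66 and 13.44, so that its values at 24 and 120 min were nearly equal with a lower one between them. SIT1 ran at 10.92, 10.53, 9.004, 9.74, 10.54, 11.36, 11.27 and 12.25. It was lowest at 7 min, 1.92 below its start, and 1.33 above it at 120 min.

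FTR1, whose protein works with Fet3, ran at 11.20, 11.16, 12.01, 12.68, 12.92, 13.12, 12.81 and 13.03. At 7 min it was 0.81 above its start, when FET3 was 0.36 below, but in BY012 both read higher at 7 than at -10 min. From 10 min on FTR1 stayed between 1.48 and 1.92 above its start, which was the lowest of its 3 -10 min values. Against the mean of those 3 it was higher by 0.98 at 10 min and by 1.34 at 120 min. With array medians subtracted, FET3 and FTR1 had r = 0.85 over the 14 arrays. FRE3 had 8.86, 8.71, 8.73, 9.11, 9.46, 9.90, 8.85 and 8.55, a rise to 24 min and a return to the starting level by 56 min. FIT3 had 11.31, 11.07, 11.13, 11.50, 11.82, 12.11, 11.88 and 11.82, and FIT2 had 10.06, 9.91, 9.65, 10.06, 10.78, 11.31, 10.48 and 9.99. Both peaked at 24 min, after which FIT3 stayed 0.51 above its start and FIT2 came back to it. FRE2 had 8.83, 8.50, 7.81, 7.73, 7.89, 8.15, 8.41 and 8.24, below its start at every time after the addition.

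For FIT2 the starting point decides the sign, since its -10 min array in BY008 was the lowest of the 3. Against the mean of the 3 -10 min arrays FIT2 was lower by 0.61 at 14 min and by 0.91 at 56 min, where against its own start it was higher by 0.71 and 0.41. ARN1 at 120 min changed sign in the same way, to -0.02. At 24 min FIT2, at 11.31 in BY008, also lay below the mean of the 3 -10 min arrays, 11.38. FRE3 at 24 min, 9.90 against a mean of 8.95, was less than 2-fold higher with this base. The 24 min count of members at least 2-fold higher thus depends on the base too. No other member changed sign at 3, 10, 14, 24, 56 or 120 min with this base. FIT2 was then also at least 2-fold lower at 3, 10 and 120 min, by 1.48, 1.33 and 1.40 on the log2 scale. The members' median became 0.30 at 10 min, 0.66 at 14 min, 0.31 at 56 min and 0.56 at 120 min. With the -10 min arrays of BY003 and BY008 as the base these medians were 0.20, 0.58, 0.07 and 0.55, so the median at 56 min in particular depends on the starting point. The number of members at least 2-fold higher at 10, 14, 56 and 120 min was 0, 3, 2 and 3 with the mean of the 3 arrays. It was 1, 3, 2 and 2 with the arrays of BY003 and BY008. With the latter base FET3, FIT2 and ARN1 were at least 2-fold lower at 3 min, and FIT2 was at 56 min. Shares of all genes were not computed with these bases, so these counts have no background here.

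**Figure D3:**
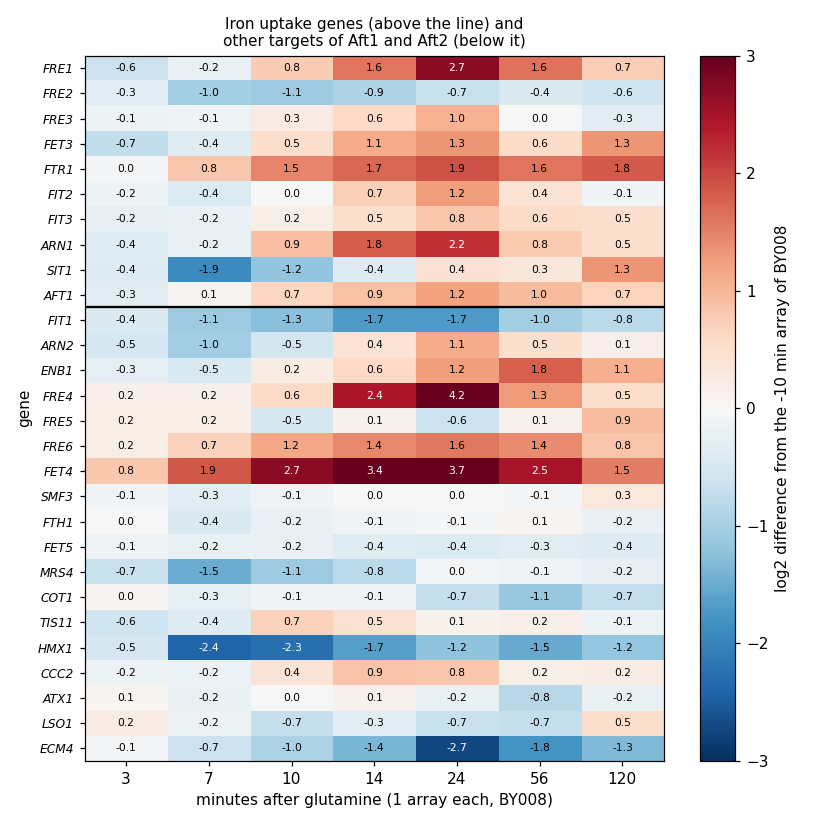
Log2 difference from the -10 min array of BY008 at each time in min (columns), with the value in each cell and the colour bar on the log2 scale. Rows above the line are the members, and rows below it are 18 other targets of Aft1 and Aft2. In the member rows the columns for 3 and 7 min are mostly below 0. At 24 min 9 of the 10 member rows are positive, the highest of them being 2.70 for FRE1. Below the line, FET4 and FRE4 are higher than that at 24 min.

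Across all 14 arrays, after subtracting each array's median, the 45 pairs of members had a median Pearson r of 0.53, from -0.51 to 0.96. These are descriptions over arrays that share a time course, 8 of them from 1 experiment. The 7 members other than FRE2, FIT2 and SIT1 formed 21 pairs with r from 0.64 to 0.96. These 7 are the members called higher at the last replicated time than before the addition, on arrays that also enter r. High r among them is thus partly built into that choice. No r for pairs among all genes is given as a background. FRE2 was below 0 with 7 of the other 9 and reached at most 0.22. FIT2 lay between 0.08 and 0.65 with the others, and SIT1 between 0.09 and 0.53.

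Members are only 10 of the 5449 genes searched, so closest genes outside the set do not show that members run apart. The genes most like each member in this measure were mostly not members. For AFT1 they were EFM3 (r = 0.97), POM152 (0.97) and FIT3 (0.96), and for FIT3 they were MRPS35 (0.98), LYS4 (0.98) and MRPL3 (0.97). FRE1 was closest to EFM6 (0.96), TIR1 (0.95) and RML2 (0.94), and FTR1 to TRM9 (0.96), DPH5 (0.95) and YNL095C (0.95). For FRE3 they were GAS4 (0.92), FRE4 (0.92) and YBR196C-A (0.90), of which FRE4 encodes another siderophore iron reductase. FET3 was closest to REA1 (0.90), IMG1 (0.89) and ARN1 (0.88), and ARN1 to REA1 (0.91), OPI1 (0.91) and FYV4 (0.90). FIT2 had lower likeness to its closest genes, YGR273C (0.81), UPC2 (0.81) and ARN2 (0.81), the last of which encodes a siderophore transporter. SIT1 was closest to LST8 (0.88), LCB5 (0.87) and HEM25 (0.87), and FRE2 to RGT1, CRR1 and FOX2 (0.91 each).

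Other known targets of Aft1 and Aft2 were described in the same way, and the difference from the members was not tested. Of 18 such genes, 3 were called higher and 8 lower at 24 min against -10 min, where 24.1% and 44.9% of all genes were. The median log2 difference of the 18 was -0.32, against -0.33 over all genes. FRE5 and LSO1, named here for their low values, had means of at most 4.96 and 5.54 at the replicated times. Both lay below 6.11, the 95th percentile of the S. pombe probe sets. The 3 higher ones were FET4, FRE4 and FRE6, the last named after its value was seen. FET4, a low-affinity transporter of iron and other metals, rose by 3.23 ± 0.27 (9.39-fold, adjusted p = 9.08e-06), by 3.45, 3.74 and 2.51. FRE4 rose by 2.99 ± 0.46 (7.96-fold, adjusted p = 0.000330), by 3.36, 4.25 and 1.37, so that BY012 was lowest here as in FRE1 and FRE3. FRE6, a vacuolar reductase, rose by 1.32 (adjusted p = 0.000272). Among the lower ones, ECM4 fell by 3.17 on the log2 scale (adjusted p = 5.19e-05) and HMX1, the haem oxygenase that releases iron from haem, fell by 1.51 (adjusted p = 0.000149). FIT1, the third cell wall mannoprotein of the FIT group, fell by 1.53 (adjusted p = 0.00372), a call that was lost with quantile normalization (adjusted p = 0.117).

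At 7 min 1 of these 18 genes was called higher and 6 lower, where 16.7% and 35.7% of all genes were. The median of the 18 was -0.54. FET4 was the higher one, by 2.13 ± 0.27 (adjusted p = 0.000253). HMX1 fell by 2.46 (adjusted p = 2.72e-05) and MRS4, a mitochondrial iron carrier, by 1.46 (adjusted p = 0.000245). ARN2 fell by 1.16 (adjusted p = 0.0273), a call lost in 6 of the 12 leave-outs, each of the 3 experiments included, with adjusted p values up to 0.0857. The count of lower genes depended on the fit, as did the share of all genes called lower. The count was 2 with array medians subtracted, 4 with quantile normalization and 10 with experiment as a replicate block. All genes called lower were 24.2%, 25.6% and 42.6% in these fits, against 35.7% in the main one. At 24 min the count was 5 with array medians subtracted and 4 with quantile normalization, where 35.6% and 33.0% of all genes were lower. Between 24 and 7 min 8 of the 18 were higher and 2 lower, where 13.2% and 20.2% of all genes were. The median of the 18 was 0.47. MRS4 rose by 1.52 (adjusted p = 0.000416) to a 24 min level within 0.06 of that at -10 min.

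Of 9 genes for iron sensing and storage, 2 were called higher and 1 lower at 24 min, where 24.1% and 44.9% of all genes were. The 2 higher ones were AFT2 and TYW1, and the lower one was CCC1. AFT2, the relative of AFT1, rose by 1.87 ± 0.24 at 24 min (3.66-fold, adjusted p = 0.000109), by 2.15, 1.82 and 1.64 in the 3 experiments. Unlike for AFT1, the test at 7 min was passed as well in the main fit, with a rise of 1.56 ± 0.24 (adjusted p = 0.000739). AFT1 too passed at 7 min with array medians subtracted (limma adjusted p = 0.0322) or quantile normalization (0.0126). The difference between the 2 genes was not tested. CCC1, the vacuolar iron importer, fell by 1.48 at 24 min (adjusted p = 6.72e-05), and TYW1, an iron-sulfur enzyme of tRNA modification, rose by 0.93 (adjusted p = 0.000238). TIS11, also called CTH2, an mRNA-binding protein made in low iron, differed by -0.93 at 7 min (adjusted p = 0.0811).

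Among genes that make or use iron cofactors, calls at 24 min went both ways, as did those of all genes, 24.1% higher and 44.9% lower. Of 23 genes for iron-sulfur cluster assembly 6 were higher and 7 lower. ISU2, a scaffold protein, rose by 2.09 (adjusted p = 2.26e-05) and the ferredoxin gene YAH1 by 2.04 (adjusted p = 3.17e-05). With array medians subtracted, and likewise with quantile normalization, 10 of the 23 were higher. All genes called higher were 31.9% and 33.1% with these scalings, against 24.1% in the main fit. Of 10 genes for haem synthesis, the regulators HAP1 and ROX1 included, 3 were higher (HEM1, HEM3 and ROX1) and 6 lower. HEM15, the ferrochelatase, fell by 3.22 (adjusted p = 0.000115). Of 16 genes for iron-containing enzymes or their subunits 4 were higher and 8 lower. LYS4, the iron-sulfur homoaconitase of lysine synthesis, rose by 2.14 (adjusted p = 2.78e-05), and the catalase gene CTT1 fell by 3.86 (adjusted p = 0.000393).

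**Figure D4:**
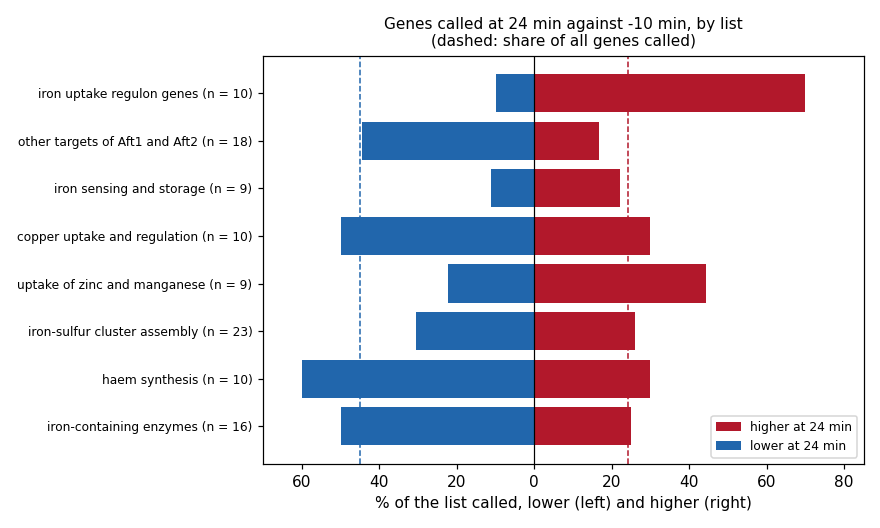
Share of each gene list called at 24 min against -10 min in percent, higher to the right and lower to the left of 0 (x axis), with dashed lines at the share of all genes, 24.1% higher and 44.9% lower. The 10 iron uptake genes have 70.0% called higher and 10.0% lower. List names are short forms, and some lists also hold regulators or genes for handling metals inside the cell.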

How the data were processed

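The table deposited by the authors gives a linear intensity for each probe set and array. Per the submitters' processing notes, R 2.10.0, affy and RMA were used; how they were set is not given in the sources used here. The deposited intensity was turned into log2 here and not changed further. Of 10928 probe sets, 5498 have 1 listed S. cerevisiae gene; the brightest was kept for 47 genes with several, leaving 5449. Symbols follow the RefSeq table of assembly R64.

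limma 3.58.1 in R 4.3.3 fitted 1 mean per time to all 14 arrays (6 residual and 3.31 prior degrees of freedom), with Benjamini-Hochberg adjustment over 5449 genes within each comparison and a threshold of 0.05, and was tested on simulated data. Standard errors come from this fit. Figures used matplotlib 3.10.9 in Python 3.11.15. Fold changes are powers of 2 of the log2 differences. Times with 1 array were set against the -10 min array of BY008, with no test.

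Members and lists were chosen with earlier results of these data known. From the lists, up to 4 called genes with the largest differences per list and comparison and 14 fixed genes could be named, and for likeness the 3 genes with the highest r. Alternatives were array-median subtraction, quantile normalization, experiment as a fixed or random block, trend and robust options, a dim-gene filter, all probe sets, the mean over probe sets, another base, a threshold of 0.01, and leaving out each experiment or array. The experiment codes in the labels pair the arrays. Within BY003, deviations of genes from their time means had r = 0.08 for -10 with 7 min, -0.05 for -10 with 24 min and 0.21 for 7 with 24 min; within BY008 these were 0.63, 0.36 and 0.35, and within BY012 0.56, 0.08 and 0.44. Whether the times of an experiment share a culture is not stated. Promoter and protein sequences, planned to be described, were not analysed here.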

Additional observations from a re-analysis of the deposited data

How the results depend on the processing

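None of the members was higher at 7 min against -10 min, but 2 were with array medians subtracted and 2 with quantile normalization (FTR1 and AFT1), where all genes called higher went up as well, to 21.3% and 20.6% with these scalings against 16.7%, and 1 with experiment as a replicate block or as a random replicate block (FTR1 in both). The 2 lower ones at 7 min became 1 at a threshold of 0.01, with array medians subtracted, with quantile normalization, with trend and robust options and with all probe sets tested. The 1 lower member at 24 min, FRE2, became 0 at 0.01, with array medians subtracted and with quantile normalization, where its difference turned to 0.025, against -0.81 without it. At 0.01, 4 of the 7 members higher at 24 against 7 min remained, where 5.36% of all genes were higher, against 13.2% at 0.05. The members' median difference was 0.0034 (medians subtracted) and 0.047 (quantile) in place of -0.19 at 7 min, and 1.15 and 1.23 in place of 0.87 at 24 min. Leaving out an experiment or array gave 0 to 1 higher and 0 to 2 lower at 7 min, 4 to 7 higher and 0 to 1 lower at 24 min, 1 to 8 higher at 24 against 7 min, 5 to 9 by the F test, and a median at 7 min from -0.32 to -0.040. Of all genes these fits called 9.82% to 16.4% higher and 15.4% to 36.5% lower at 7 min. At 24 min they called 17.0% to 23.9% higher and 34.2% to 44.4% lower. At 24 against 7 min 1.52% to 16.7% of all genes were higher. By the F test 45.4% to 72.1% passed, and 65.3% did without BY008, the fit with 5 members. The replicate block also called FIT2 lower at 7 min (adjusted p = 0.0481), and the random block called FTR1 at 24 against 7 min (adjusted p = 0.0491). The cause of these shifts was not tested. Of the single members' values under alternatives, 554 kept their side of the threshold, 62 lost and 13 gained the call, and 1 called difference changed sign. The 554 include sign changes of differences that were called in neither fit, as for FET3 at 7 min. All member values lay above the 95th percentile of S. pombe probe sets.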

Other observations

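Genes for the uptake and handling of other metals moved both ways beside the iron genes. Of 10 genes for copper uptake, regulation and use, 3 were called higher and 5 lower at 24 min against -10 min. The shares of all genes were 24.1% higher and 44.9% lower. The median log2 difference of the 10 was -0.40, against -0.33 over all genes. CTR1, the high-affinity copper transporter of the plasma membrane, rose by 1.72 ± 0.14 (3.29-fold, limma adjusted p = 6.78e-06), with 1.63, 2.01 and 1.52 in the 3 experiments. CTR2, the vacuolar copper transporter, fell by 2.03 (adjusted p = 1.72e-05), with -1.57, -2.18 and -2.34. Both calls held in all 12 leave-outs.

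Of 9 genes for the transport of zinc and manganese, within the cell too, and its regulation, 4 were called higher and 2 lower at 24 min. The median of the 9 was 0.62, and 24.1% of all genes were called higher and 44.9% lower. ZRT1, the high-affinity zinc transporter, rose by 3.37 ± 0.48 (10.4-fold, adjusted p = 0.000198), by 3.69, 3.18 and 3.25. ZRT2, its low-affinity counterpart, rose by 2.12 at 24 min (adjusted p = 0.000186) and by 1.92 at 7 min (adjusted p = 0.000763). At 7 min ZRT1 differed by 1.04 (adjusted p = 0.0934), BY003 giving 1.80, BY008 -0.23 and BY012 1.55. It was called without BY008. SMF2, a manganese transporter, fell by 1.63 at 24 min (adjusted p = 6.24e-06).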
